A study of Rattus norvegicus with 6 samples.

Results

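The nuclear-encoded subunits of respiratory complexes II to V were examined in retinal ganglion cells of rats. Other genes that share their names were included, namely assembly factors, an inhibitor, a factor for joining complexes (Cox7a2l) and a pseudogene (Cox6c-ps1). Members were the probe sets whose single gene symbol on the array began with Sdha, Sdhb, Sdhc, Sdhd, Uqcr, Cox4, Cox5, Cox6, Cox7, Cox8 or Atp5, or was Cyc1 or Cycs. This gave 56 probe sets for 49 genes, out of 20826 probe sets for 14217 genes with 1 symbol. Complex II had 8 genes, complex III 8, complex IV 17 and complex V 16. No probe set carried Cycs, the gene of cytochrome c, as its only symbol, and 7 probe sets with a member name beside another symbol were left out, among them those for Cycs, Cox7a2, Uqcrb, Atp5mc1 and Atp5mc2.

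The cells came from both eyes of 3 adult male Brown Norway rats, a pigmented strain. Fluorogold, a tracer placed in the superior colliculus and taken up by axons, had marked the cells, and laser capture gave 2000 of them per eye. In 1 eye of each rat the pressure had been high for 10 days after hypertonic saline was injected into an episcleral vein, and the other eye had served as control. The groups compared were OS (left eyes, n = 3) and OD (right eyes, n = 3). The labels did not say which eye had the high pressure, so whether OS or OD stands for the high pressure is unknown, and the side may have varied between rats. Both eyes of all 3 rats share the strain, the tracer and the amplification, and each array was 1 eye.

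Complexes II to V carry electrons from succinate and from ubiquinol to oxygen and use the resulting proton gradient to make ATP. Complex II, succinate dehydrogenase, also belongs to the citric acid cycle and is built from nuclear genes only, whereas complexes III, IV and V each combine nuclear subunits with subunits made inside the mitochondrion. Retinal ganglion cells have a high demand for ATP, and mitochondria are dense in the unmyelinated part of their axons within the eye.

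Values are array intensities on a linear scale, set to a common trimmed mean of 500.1 on every array before they were deposited, so a loss or gain of all RNA at once could not be seen. A background limit for each array was the 95th percentile of 27 control probe sets whose bacterial targets were absent from the spiked controls. It was 399.6, 546.6 and 409.2 in OS of rats 1, 2 and 3, and 260.5, 590.8 and 292.9 in OD. Between 34.8% and 58.1% of probe sets exceeded it. Differences are OS minus OD within a rat on the scale of log2(intensity + 16), given as the mean ± SD of 3 rats. They understate the change of dim probe sets. Values of different probe sets cannot be set against each other as levels. In bulk RNA of this kind, fewer cells of a type and less RNA per cell cannot be told apart.

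Ganglion cell markers were detected. Of the 17 marker genes on the array, 16 exceeded the limit on at least 1 array. So did all but 3 of the 8594 genes tested, so this count does not set the markers apart. That share covers only genes bright enough to be tested, as 14 of the 17 were. On all 6 arrays, 9 of 14 tested markers exceeded it, against 2232 of the 8594 genes tested. Among these 9 were Thy1, a surface glycoprotein, and Nefh and Nefm, which build the axonal cytoskeleton. Chrnb3 stayed at or under the limit on all 6. The summed intensity of the 17 genes was 19649.8 to 27133 in OS, against 29981 to 44483 in OD, lower in OS in each rat, and 13 of 14 tested had a lower mean in OS. Markers of other cell types were also detected. The sums of 11 amacrine markers were 13204 to 26372 in OS, against 28796 to 78546 in OD, lower in OS in each rat. A few bright genes carried them, with Gad1 at 25386 and Calb2 at 24082 in OD of rat 3. Of the 8 tested, 5 had a lower mean in OS and 3 a higher one. Chat was under the limit on all arrays, and Gad2 and Slc32a1 exceeded it on 2 of 6 each. The sums of 9 pigment epithelium markers were 2959 to 7542 in OS, against 8351 to 43377 in OD, also lower in each rat. Of the 7 tested, 6 had a lower mean, but in rat 2 only Ttr and Dct of these were lower, and the median there was 0.31. The sums of 14 microglia and macrophage markers were 4985 to 14472 in OS, against 4506 to 7357 in OD. Of the 8 tested, 3 averaged lower and 5 higher in OS (median 0.34). Photoreceptor and bipolar cell markers (14 genes) summed to 13879 to 33418 in OS, against 14359 to 47431 in OD. Of the 13 tested, 4 averaged lower and 9 higher in OS (median 0.24). Glial markers (12 genes) summed to 9624 to 30422 in OS, against 10886 to 29383 in OD. Of the 8 tested, 4 averaged lower and 4 higher (median 0.05). Rlbp1 counts in both the glial and the pigment epithelium sums. The log2 ratio of the 3' to the 5' probe set of the beta-actin control was higher in OS in each rat (1.32 ± 0.52, SD, n = 3). That of Gapdh differed by -0.46 ± 1.86. It was higher in OS in rats 1 and 2 (0.29 and 0.90) and lower in rat 3 (-2.58). The part of these sums and ratios in the member values below was not tested.

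Of the 49 member genes, 36 were bright enough to be tested, that is, their brightest probe set lay at or above the median brightness of all probe sets. None of the 36 passed limma at an adjusted p of 0.05 (smallest adjusted p = 0.306), and 2 of all 15521 tested probe sets did, 0.0129%. Most of the members tested were dimmer in OS. Their mean difference was negative for 29 of 36 genes, 80.6%, against 53.7% of the 8594 genes tested. The 13 members not tested were split, with 6 lower and 7 higher in OS and a median of 0.03. Over all 49 members, 35 had a lower mean, 71.4%. The median difference of the 36 was -0.70, against -0.07 for all genes tested. At an unadjusted p under 0.05, 8 members were lower and 0 higher in OS, where 5.2% and 1.73% of all genes tested were. Brightness was averaged over both eyes, for members and all other genes, so a gene dim in OS could be tested through OD alone. Among the 8, this holds for Atp5f1b, Atp5me and Atp5pf, which lay below the median brightness in OS. The members lower were 4 without the replicate block and 5 with it as a random block, without the intensity trend or from the 75th percentile of brightness up, and without rat 1 there were 6 lower and 1 higher. The members and this comparison were taken up with earlier results of these data known, so the counts describe these 3 rats and are not a test.

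**Figure D1:**
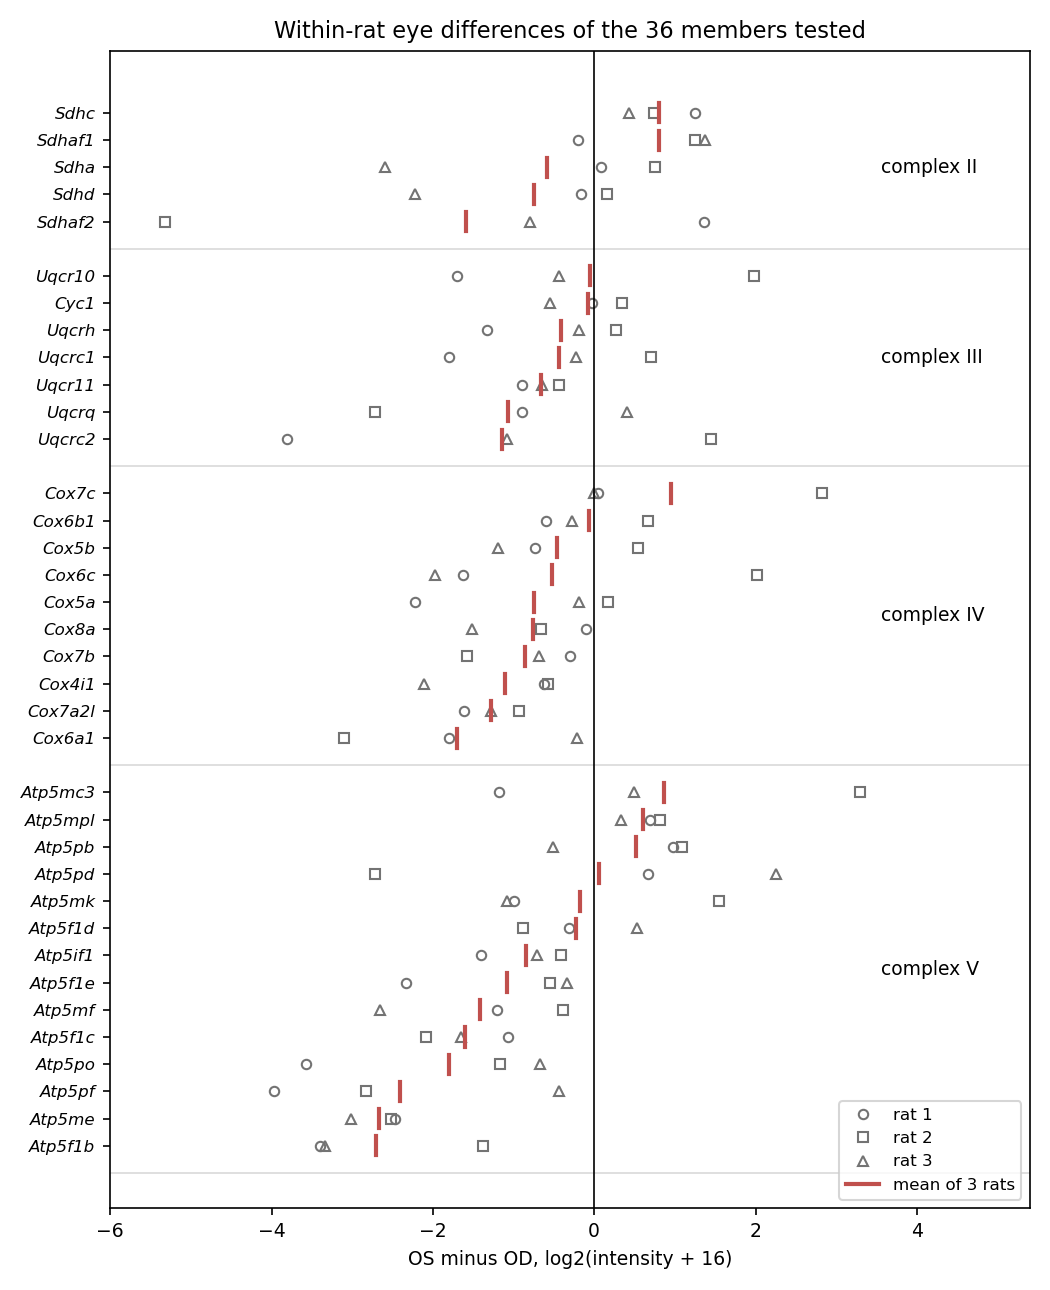
Eye differences of the 36 members tested, in log2(intensity + 16), OS minus OD, grouped by complex; open symbols are single rats and red bars the mean of 3 rats. Of the means, 29 lie left of 0. Those of Atp5f1b (-2.71) and Atp5me (-2.67) are not exact sizes, since all 3 OS arrays lie at or below the background limit, and OD is at least 3.39-fold and 2.61-fold higher.

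The tendency was not shared evenly by the rats. In rat 1, 29 of the 36 members were lower in OS, with a median of -0.95 against -0.11 for all genes tested. In rat 3, also 29 were lower, with a median of -0.59 against 0.01. In rat 2, 18 of 36 were lower, and the median was -0.12 against -0.05, so in that rat the members lay close to the genes tested. Leaving out rat 1 moved the median of the members to -0.39, leaving out rat 2 to -1.01, and leaving out rat 3 to -0.60. Members lower in all 3 rats numbered 14 and members higher in all 3 numbered 2, where 15.6% and 13.1% of the genes tested were. The 3 OS arrays were all dimmer than the 3 OD arrays for 4 members (5.7% of genes tested) and all brighter for 0 (4.79%). Those 4 were Atp5f1b, Atp5me, Atp5f1c and Cox4i1. Of these, Atp5f1b, Atp5me and Atp5f1c were bright enough to be tested only through OD.

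**Figure D2:**
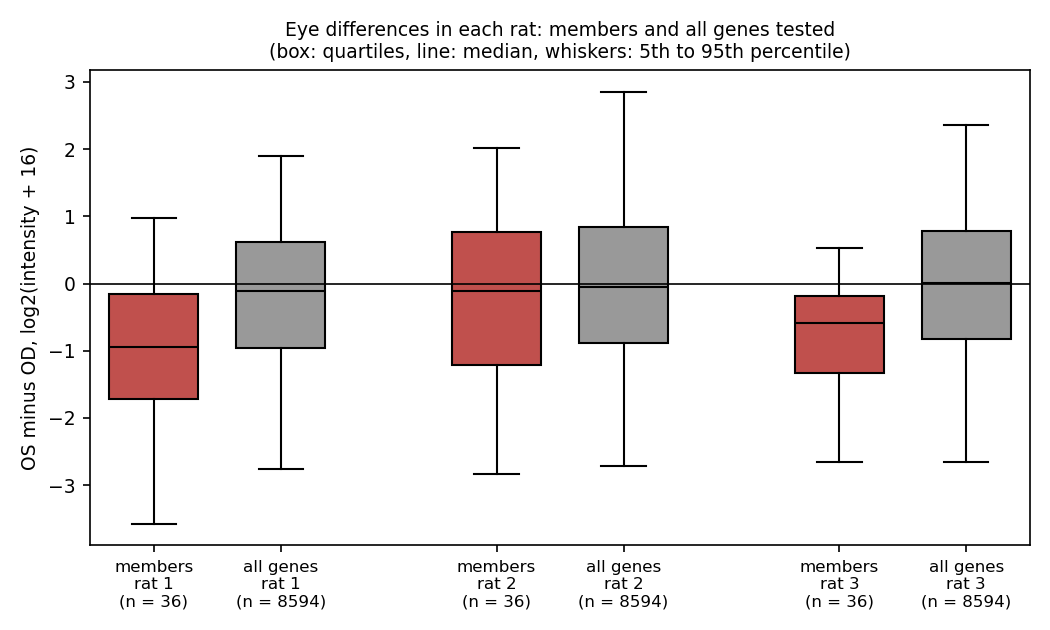
Differences OS minus OD in log2(intensity + 16) in each rat, for the 36 members tested (red) and the 8594 genes tested (grey). The medians of the members are -0.95, -0.12 and -0.59 in rats 1, 2 and 3, and those of all genes -0.11, -0.05 and 0.01.

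Brightness itself differed between the members and other genes. Of the 36, 25 also lay above the 75th percentile of all probe sets, and 13 exceeded the background limit on all 6 arrays. Among the 4674 genes above that percentile, 56.4% had a lower mean in OS and the median was -0.11, against 84% and -0.53 for the 25 members. Of the 36 members, 27, 22 and 26 exceeded the limit in OS of rats 1, 2 and 3, against 36, 25 and 35 in OD. The same shares over all genes tested were 73.1%, 60.4% and 75.5% in OS, against 89%, 59.9% and 83.6% in OD.

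Complex V, the ATP synthase, held 6 of the 8 members with an unadjusted p under 0.05, namely Atp5f1b, Atp5f1e, Atp5me, Atp5mf, Atp5pf and Atp5po. It consists of the F1 part, where ATP is made, a membrane part (Fo) through which protons pass, and a peripheral stalk that holds both together. Of its 16 genes, 14 were tested, of which 10 averaged lower in OS, including 8 that did so in every rat. The median of the 14 was -0.96, with -1.19, -0.72 and -0.59 in rats 1, 2 and 3.

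Atp5f1b encodes the catalytic beta subunit of F1. Its intensity (1370275_at) was 103, 448 and 219.5 in OS of rats 1, 2 and 3, against 1242, 1187 and 2369.5 in OD. All 3 OS arrays lay at or below their background limit and all 3 OD arrays above theirs, so the groups did not overlap. OD was at least 3.39-fold higher, with the limit in place of the OS values, and the measured log2 difference was -2.71 ± 1.15 (SD, n = 3 rats; limma adjusted p = 0.306). Atp5f1c, the gamma subunit that turns inside the head, had 286, 78 and 347 in OS, against 619.7, 384 and 1124 in OD. Here too no OS array exceeded its limit, while OD did in rats 1 and 3, so that in rat 2 neither eye was above background (measured difference -1.60 ± 0.51, limma adjusted p = 0.781). Atp5f1e, the epsilon subunit, was far above background on every array, at 7.75 to 103.6 times the limit. It measured 3096, 4829 and 23936 in OS, against 15676, 7070.1 and 30337 in OD, a difference of -1.07 ± 1.10 (limma adjusted p = 0.653). It was lower in OS in each rat, with most of the difference in rat 1, but rat 3 exceeded both other rats in either eye. Atp5f1d, the delta subunit, differed by -0.22 ± 0.72 and went different ways in different rats. Atp5f1a, the alpha subunit that alternates with beta in the head, was too dim to be tested. It had 492, 739 and 39 in OS, against 814, 44.5 and 381 in OD, so its probe set did not follow that of Atp5f1b in rat 2.

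Atp5me encodes subunit e, one of the small Fo proteins at the place where neighbouring ATP synthases join. Its brightest probe set (1387019_at) had 247, 182 and 108 in OS, against 1439.7, 1115 and 984 in OD. No OS array exceeded its limit and every OD array did, which makes OD at least 2.61-fold higher. The measured difference of -2.67 ± 0.30 had the second smallest unadjusted p of the members (limma adjusted p = 0.423). The other probe set of the gene (1377191_at) had 587, 134 and 207 in OS, against 324, 281 and 1104 in OD, and went the other way in rat 1, at -0.83 ± 1.58. The gene's difference therefore rests on 1 of its 2 probe sets. Atp5mf, subunit f of the same membrane part, measured 781, 602 and 951 in OS, against 1822, 793 and 6084 in OD, above the limit everywhere. The difference was -1.42 ± 1.15 (limma adjusted p = 0.619), lower in OS in each rat, while OS of rat 3 exceeded OD of rat 2.

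The remaining Fo genes went several ways. Atp5mk, which encodes another small membrane subunit, had 2811, 4952 and 2352 in OS, against 5606, 1684 and 4973 in OD. Its eyes crossed between rat 2 and the others (-0.17 ± 1.49). Atp5mpl, a small proteolipid gene, was the 1 tested complex V gene that was higher in OS in all 3 rats, at 2005, 1451 and 3351 in OS, against 1239.5, 820.5 and 2650.5 in OD. Its difference of 0.61 ± 0.25 did not pass (limma adjusted p = 0.816). Atp5mc3, a gene of the proton-carrying ring, differed by 0.87 ± 2.26 with the sign turned in rat 1. Atp5mg, subunit g, was higher in OS in each rat (1.72 ± 2.60), nearly all of it from rat 1. It exceeded the limit on 1 of 6 arrays, OS of rat 1, and was not tested.

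Of the 4 peripheral stalk genes, Atp5pf and Atp5po were lower in OS in all 3 rats and Atp5pb and Atp5pd had a positive mean. Atp5pf, coupling factor 6, had 34.8, 73 and 905 in OS, against 783, 617 and 1226 in OD, a difference of -2.41 ± 1.81 (limma adjusted p = 0.649). The OS value of rat 3 lay above the OD values of rats 1 and 2. Atp5po, the subunit that confers sensitivity to oligomycin, had 94.4, 587 and 322 in OS, against 1299.6, 1333 and 524 in OD, at -1.80 ± 1.55 (limma adjusted p = 0.690). Its dimmer probe set went the other way in rats 2 and 3 (0.83 ± 1.81). Both genes exceeded the limit on 3 OD arrays and on 1 OS array, which leaves the size of either difference uncertain. Atp5pb differed by 0.52 ± 0.89 and Atp5pd by 0.06 ± 2.54.

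Atp5if1 encodes the inhibitor that stops ATP synthase from running backwards when the proton gradient fails. Its brightest probe set (1369588_a_at) measured 497, 676 and 1583 in OS, against 1342, 902 and 2607 in OD, above the limit on all 6 arrays and lower in OS in each rat (-0.84 ± 0.51, limma adjusted p = 0.799). The other 2 probe sets of the gene gave 0.15 ± 0.37 and -0.33 ± 0.73, neither with 1 direction in the 3 rats.

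**Figure D3:**
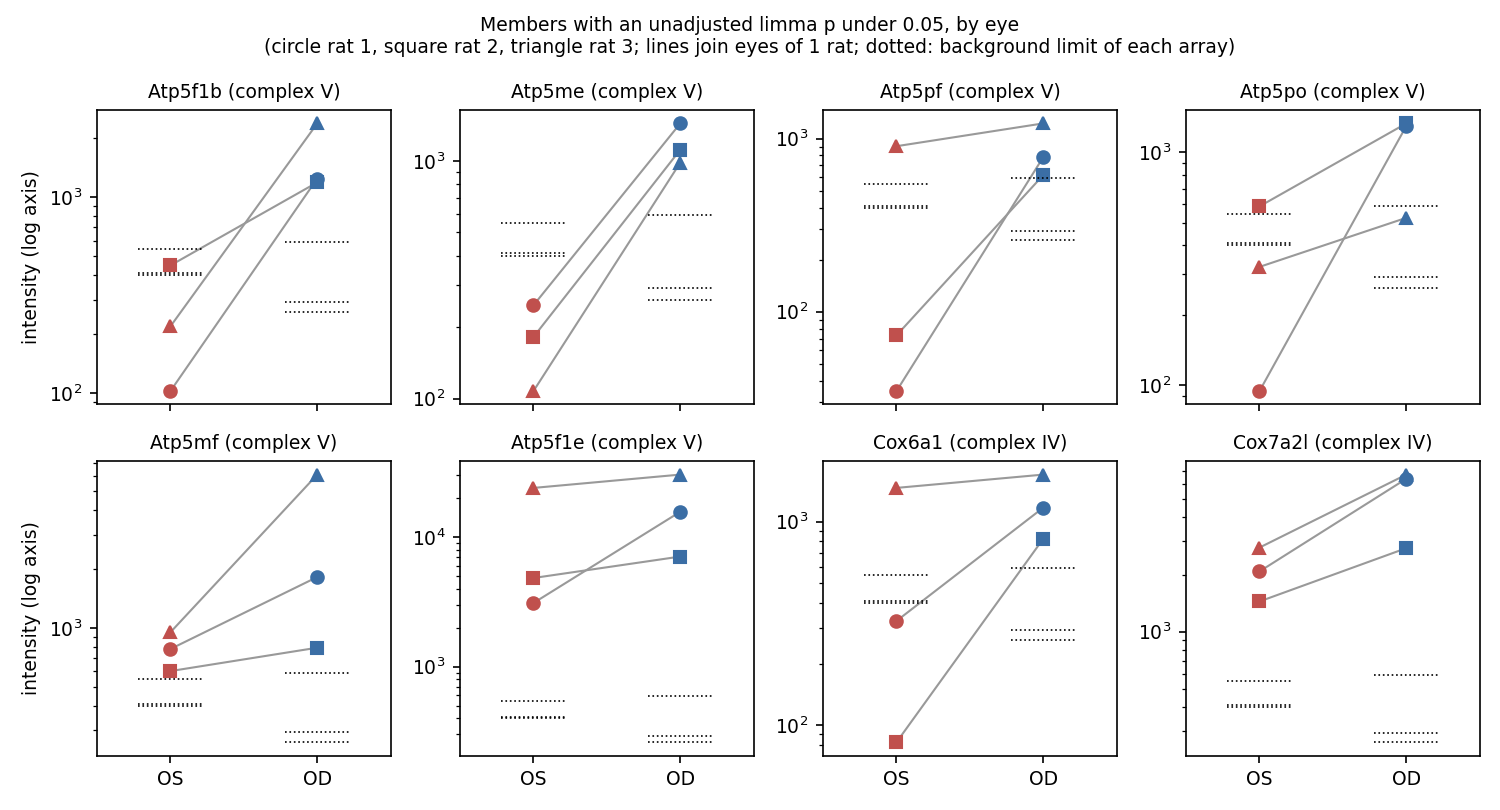
Intensity on a log axis of the 8 members with an unadjusted limma p under 0.05, in OS and OD; lines join the eyes of 1 rat and dotted lines give the background limit of each array. All 24 lines slope down towards OS, and the OS values of Atp5f1b and Atp5me lie under their limits.

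Complex IV, cytochrome c oxidase, passes electrons from cytochrome c to oxygen. Its nuclear subunits surround a core made in the mitochondrion. Of its 17 genes, counting Cox7a2l and the pseudogene Cox6c-ps1, 10 were tested, Cox7a2l among them. The mean was lower in OS for 9 of these, and 5 were lower in all 3 rats, with a median of -0.75. Medians were -0.68, -0.20 and -0.94 in rats 1, 2 and 3.

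Cox7a2l, whose product is known from mouse to help join complexes III and IV into supercomplexes, had the smallest p in this group. It measured 2076, 1442 and 2774 in OS, against 6405, 2755 and 6733 in OD, and lay at 2.64 to 24.6 times the limit. Each rat was lower in OS by a similar amount (-1.27 ± 0.35, limma adjusted p = 0.495), and the eyes overlapped only by OS of rat 3, at 2774, against OD of rat 2, at 2755. Cox6a1, subunit 6a in its common form, had 325, 82.2 and 1465 in OS, against 1172, 824 and 1704 in OD. It was lower in OS in each rat (-1.70 ± 1.44, limma adjusted p = 0.662) and all 3 OD arrays exceeded their limits, but of the OS arrays only that of rat 3 did, which leaves the size uncertain. Cox4i1, the common form of the subunit that mediates inhibition by ATP, had 586, 575 and 209 in OS, against 912, 862 and 955 in OD. The eyes did not overlap, and the difference was -1.10 ± 0.87 (limma adjusted p = 0.799).

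Cox8a, the common form of subunit 8, had 1861, 931 and 2813 in OS, against 2005, 1483 and 8074 in OD. It was lower in OS in each rat (-0.76 ± 0.71), chiefly in rat 3. Cox7b was also lower in each rat (-0.86 ± 0.66). Cox6b1, which faces the intermembrane space, had 1162, 1437 and 1188 in OS, against 1760.5, 896 and 1444 in OD. Its mean difference was small (-0.07 ± 0.66), since it was lower in OS in rats 1 and 3 and higher in rat 2. Cox5a (-0.75 ± 1.29), Cox5b (-0.46 ± 0.90) and Cox6c (-0.53 ± 2.21) were lower in OS in rats 1 and 3 and higher in rat 2. Cox7c was the 1 tested gene of the complex with a higher mean in OS (0.95 ± 1.62), nearly all of it from rat 2.

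Several subunits of complex IV exist in a common form and a form restricted to certain tissues. Heart and skeletal muscle use Cox6a2, Cox7a1 and Cox8b, lung uses Cox4i2, and testis uses Cox6b2 and Cox7b2. None of these 6 genes was bright enough to be tested. Cox6b2 exceeded the limit on 0 of 6 arrays, Cox4i2, Cox7b2 and Cox8b on 1, and Cox6a2 and Cox7a1 on 2. The common forms Cox6b1 and Cox8a exceeded it on all 6, Cox4i1 and Cox7b on 5 and Cox6a1 on 4. Cox7a1 had 101, 875 and 820.3 in OS, against 88.7, 133 and 95.9 in OD, higher in OS in each rat and above the limit in OS of rats 2 and 3 only. The 12 muscle markers on the array summed to 5785 to 7028 in OS, against 3505 to 5862 in OD. Each exceeded the limit on at least 1 array. All but 3 of the 8594 genes tested did so too, but only 4 of the 12 were bright enough to be tested. The share over all genes on the array, tested or not, was not counted. Of the 4 tested, 2 averaged lower and 2 higher in OS, with a median of -0.16. Over all 12, 4 averaged lower and 8 higher. Ckm, the muscle creatine kinase, had 918, 161 and 928 in OS, against 162, 71.6 and 98 in OD, higher in OS in each rat. Des, the muscle filament protein desmin, went the other way, with 197, 556 and 81.3 in OS, against 609, 1542 and 596 in OD. The part of muscle RNA in the Cox7a1 values was not tested. The pseudogene Cox6c-ps1 exceeded the limit on 0 of 6 arrays.

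**Figure D4:**
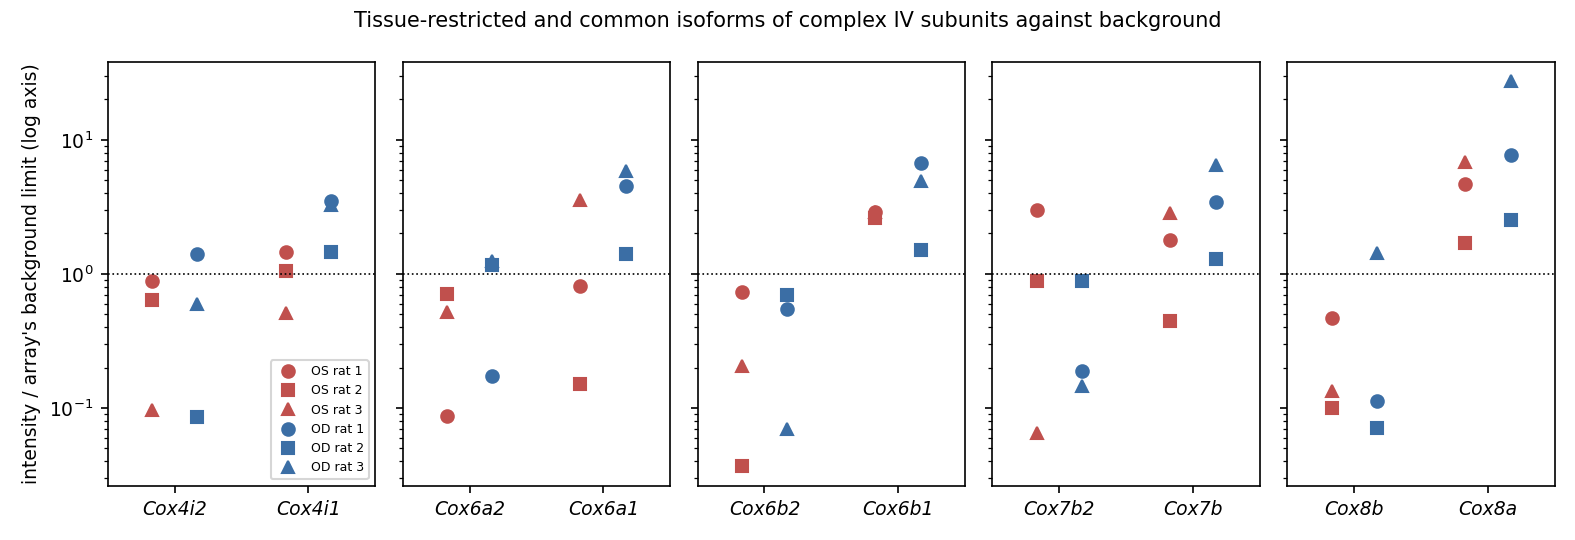
Intensity divided by the background limit of the same array (log axis, dotted line at 1) for a tissue-restricted form, left in each panel, and the common form of 5 complex IV subunits, in OS (red) and OD (blue). Cox6b2 stays under the limit on all 6 arrays, and Cox6b1 and Cox8a stay above it on all 6.

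Complex III hands electrons from ubiquinol to cytochrome c. All 7 tested genes of its 8 had a lower mean in OS, by -0.05 to -1.14, and their medians were -1.33, 0.34 and -0.44 in rats 1, 2 and 3, so the sign was turned in rat 2. Of the 7, 1 was lower in all 3 rats. That gene was Uqcr11, a small subunit, with 2219.5, 1758 and 5323 in OS, against 4126, 2390.4 and 8327 in OD. It was bright on all arrays and differed by -0.66 ± 0.23 (limma adjusted p = 0.796), although OS of rat 3 exceeded OD of rats 1 and 2.

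Uqcrc1, a core protein gene, had 1155, 2204 and 3588 in OS, against 4055, 1350.5 and 4208 in OD (-0.44 ± 1.26). Uqcrh, the hinge protein that contacts cytochrome c1, had 1746, 1863 and 6085 in OS, against 4416, 1539 and 6922 in OD (-0.41 ± 0.83). Both were lower in OS in rats 1 and 3 and higher in rat 2. Cyc1, cytochrome c1 itself, hardly differed, at 1243, 879 and 1471 in OS, against 1269, 691 and 2149 in OD (-0.08 ± 0.44). Uqcrq had 674, 121 and 3085 in OS, against 1270.1, 888 and 2324 in OD, and was lower in OS in rats 1 and 2 only (-1.07 ± 1.57, limma adjusted p = 0.785). Uqcr10 went both ways (-0.05 ± 1.87). The 2 probe sets of Uqcrc2, the other core protein gene, disagreed, at -1.14 ± 2.63 and 0.55 ± 2.28. Uqcrfs1, which encodes the Rieske iron-sulfur protein, exceeded the limit on 1 of 6 arrays and was not tested.

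Complex II was split between the eyes, and its difference from the other complexes was not tested. Of its 4 subunits and 4 assembly factors, 5 were tested. Of these, 3 averaged lower and 2 higher in OS, with a median of -0.58, and the medians were 0.09, 0.75 and -0.79 in rats 1, 2 and 3. Sdhc, a membrane anchor that binds ubiquinone, was above the limit on all 6 arrays and higher in OS in each rat, at 2035, 1858 and 1019 in OS, against 848, 1102 and 751 in OD. The difference was 0.81 ± 0.41 (limma adjusted p = 0.799), and OS of rat 3 lay between OD values. Sdhb, the iron-sulfur subunit, was also higher in OS in each rat but too dim to be tested, at 47.8, 186 and 1079 in OS, against 21.7, 47.3 and 406 in OD, above the limit in rat 3 alone. Sdha, the flavoprotein that oxidises succinate, had 992, 732 and 85.7 in OS, against 933, 426 and 599 in OD (-0.58 ± 1.78), lower in OS in rat 3 only. The other anchor gene, Sdhd, differed by -0.74 ± 1.29, nearly all from rat 3. Its dimmer probe set exceeded the limit on 1 of 6 arrays and was lower in OS in each rat (-1.99 ± 0.72, not tested).

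Of the assembly factors, Sdhaf2, which attaches the flavin to Sdha, had 774, 18.4 and 824 in OS, against 291, 1364 and 1437 in OD. The difference of -1.59 ± 3.41 had the smallest p of complex II (limma adjusted p = 0.796) but rested on rat 2, and rat 1 went the other way. Its other probe set exceeded the limit on 0 of 6 arrays. Sdhaf1, needed for the iron-sulfur subunit, differed by 0.81 ± 0.88. Sdhaf3 and Sdhaf4 exceeded the limit on 1 of 6 arrays each.

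Members differed between rats as well as between eyes. In 13 of 36 members both arrays of rat 3 were brighter than the other 4 arrays, against 12.5% of the genes tested. Complex III supplied 5 of these (Cyc1, Uqcr10, Uqcr11, Uqcrh and Uqcrq), complex IV 4 (Cox5a, Cox6a1, Cox7b and Cox8a) and complex V 4 (Atp5f1e, Atp5if1, Atp5mpl and Atp5pf). In 5 members both arrays of rat 2 were the dimmest, against 8.61% of genes tested. The median of log2(intensity + 16) over the 36 members was 9.57, 9.35 and 10.22 in OS of rats 1, 2 and 3, and 10.31, 9.75 and 10.80 in OD. For all genes tested it stayed between 9.41 and 9.54 in OS and between 9.42 and 9.53 in OD.

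Other genes of mitochondrial respiration gave a mixed picture, and no gene of these lists passed limma over all probe sets. Of 24 tested complex I subunits, the entry point of electrons from NADH, 14 averaged lower and 10 higher in OS, with a median of -0.46. Ndufb2 differed by -2.40 ± 2.31 (limma adjusted p = 0.394) and Ndufa1 by -1.56 ± 1.74. Of 19 tested assembly factors other than members, 13 had a lower mean and the median was -0.40. Cox17, which delivers copper to complex IV, had 15.7, 395 and 149 in OS, against 999, 1075 and 1841 in OD, with no OS array above its limit and all OD arrays above theirs. OD was at least 2.81-fold higher (measured -3.30 ± 1.80, limma adjusted p = 0.355). Of 17 tested genes for mitochondrial carriers, import and dynamics, 13 had a lower mean, with a median of -0.20. Vdac3, an outer membrane channel gene, differed by -2.13 ± 0.97 (limma adjusted p = 0.285), and Tomm20, an import receptor gene, by -2.14 ± 1.44 (limma adjusted p = 0.290). Of 9 tested regulators of mitochondrial biogenesis, 5 averaged lower and 4 higher (median -0.07). Among them Nrf1, a transcription factor that binds promoters of respiratory genes, had 2779.8, 2757 and 556 in OS, against 1759.6, 1019 and 318 in OD, higher in OS in each rat (0.95 ± 0.41, limma adjusted p = 0.771).

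Respiratory genes on different chromosomes are known to share promoter elements for NRF1, for ETS factors such as GABP and for YY1. RefSeq promoters of the GRCr8 assembly, from 250 bases before to 50 after the annotated start, were available for 42 of the 49 genes. For some genes the start used lay away from the annotated 5′ end of the gene. The distance was 19553 bases for Cox7a1, 12815 for Uqcrfs1, 4639 for Atp5f1d and 3893 for Uqcrq, and less for others. All were counted alike. They were searched on both strands for the NRF1 core (with any base in the sixth place, in capitals in the Atp5po and Atp5mpl windows), for CCGGAAG (ETS) and for GCCATCTT (YY1), and matches of different motifs did not overlap. The NRF1 core was found in 9 of 42 members (21.4%) and in 5.67% of 21851 promoters of protein-coding genes. The ETS letters were in 16 members (38.1%) and in 10.7% of those promoters, and the YY1 letters in 7 (16.7%) and 3.67%. At least 1 of the 3 was in 25 members (59.5%), against 17.9%. Base composition was not matched, and a match is a description of letters, not a site.

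The windows of 4 genes are shown, since they stand for members lower in OS in each rat with and without a match and for 1 member higher in OS in each rat with a match. Atp5f1b, lower in OS in each rat, held none of the 3 motifs, and Atp5po, likewise lower, held the NRF1 core at -59 to -50 from the start and the YY1 letters just after the start, at 2 to 9. Atp5mpl, higher in OS in each rat, held the NRF1 core at -60 to -51. Cox8a, lower in OS in each rat, held the ETS letters on the opposite strand at -57 to -51 and -19 to -13, and the YY1 letters across the start. The 250 bases before the start are given 5′ to 3′ along the gene, with matches that lie wholly within them in capitals.
Atp5f1b, chr7:1099808-1100057, plus strand: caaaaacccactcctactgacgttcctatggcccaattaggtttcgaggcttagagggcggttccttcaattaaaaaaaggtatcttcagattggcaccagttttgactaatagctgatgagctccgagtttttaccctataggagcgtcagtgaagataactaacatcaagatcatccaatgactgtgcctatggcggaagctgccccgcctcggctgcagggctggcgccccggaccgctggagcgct
Atp5po, chr11:44657484-44657733, minus strand: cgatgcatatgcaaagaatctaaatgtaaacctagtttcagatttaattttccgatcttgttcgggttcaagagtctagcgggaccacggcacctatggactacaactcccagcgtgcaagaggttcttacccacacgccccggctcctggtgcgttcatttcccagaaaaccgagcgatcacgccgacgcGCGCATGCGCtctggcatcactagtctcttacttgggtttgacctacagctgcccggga
Atp5mpl, chr6:136845641-136845890, minus strand: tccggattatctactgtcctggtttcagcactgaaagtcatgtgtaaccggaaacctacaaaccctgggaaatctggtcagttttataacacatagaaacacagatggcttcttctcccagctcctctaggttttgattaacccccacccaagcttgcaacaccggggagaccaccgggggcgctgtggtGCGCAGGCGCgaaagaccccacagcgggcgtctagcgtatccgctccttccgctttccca
Cox8a, chr1:213833624-213833873, minus strand: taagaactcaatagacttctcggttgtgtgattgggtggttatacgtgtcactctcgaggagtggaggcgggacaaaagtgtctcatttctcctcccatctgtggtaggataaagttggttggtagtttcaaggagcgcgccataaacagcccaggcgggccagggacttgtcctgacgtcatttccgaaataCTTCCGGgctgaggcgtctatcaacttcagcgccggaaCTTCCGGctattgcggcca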

How the data were processed

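Per the labels' protocols, the captured cells yielded RNA through a PicoPure kit, which was amplified (RiboAmp HS), biotin-labelled and hybridised to 1-colour Affymetrix arrays, 1 per eye. The authors deposited 1 intensity per probe set, not log-transformed; GCOS is named in the submitters' processing notes, without settings. Trimmed by 2% at both ends, all arrays averaged 500.1, and they were not normalized again. Of 31099 probe sets, 57 controls were left out, and the platform annotation gave 1 symbol for 20826 of the rest.

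Arrays were grouped by eye from the titles. From the values, log2(intensity + 16) was computed, and probe sets at or above the median brightness (15521, for 8594 genes) were tested in limma 3.58.1 (R 4.3.3): rat as a fixed block, intensity trend, two-sided, Benjamini-Hochberg adjustment over all tested probe sets, threshold 0.05. Adjusted p-values come from this fit, with 2 residual and 19.4 prior degrees of freedom. It was tested on simulated data. Both eyes of a rat come from 1 animal, which is the source of the pairing; their deviations from the mean of each group correlated over probe sets at 0.109, 0.122 and 0.326 in rats 1 to 3. Eyes of rats 1 and 2 correlated about as much across rats (0.104 and 0.088), so the values set only rat 3 apart. The brightest probe set stood for a gene. A fold was given as at least N where all 3 arrays of one eye lay at or below the background limit and all 3 of the other above it.

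Members and lists were chosen with earlier results of these data known. All members are accounted for. Values by array were to be given for members above the limit on all arrays, the 2 with the smallest p in each complex, and isoforms of these; those of Atp5f1a, Atp5f1c, Atp5pf, Atp5po, Cox4i1, Cox7a1, Sdha, Sdhb and of some list genes were added after their values were seen. The number of arrays limits the precision. The alternatives were another offset, quantile normalization, other filters, no or a random block, other variance priors, array weights, gene means and leaving out each rat.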

Additional observations from a re-analysis of the deposited data

How the results depend on the processing

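No member passed the adjusted threshold in limma under any of the 15 alternatives, and the smallest adjusted p was 0.0949, without rat 2. At an unadjusted p under 0.05, 8 members were lower in OS; without the replicate block this was 4 and with a random replicate block 5, with 0 higher in each. The median of the members, -0.70, was -0.46 over all 49 genes without a filter, -0.48 with means over probe sets and -0.39 to -1.01 with 1 rat left out. In the whole table, 2 probe sets passed. None passed after 6 changes (an offset of 1, quantile values, the 75th percentile as filter, no replicate block, a random replicate block, no trend), a count of 0 each where the fit of the report had 1072 probe sets at an unadjusted p under 0.05. A robust prior gave 1, weighted arrays 7, dropping the filter 9, raising the offset to 64 also 9, and omitting single rats 18 to 59. Of 526 repeated member differences, 503 kept their sign and 23 turned it. Changing the filter, the block or the variance prior leaves a difference as it is, so many of the 503 could not have turned. The turns came from an offset of 64 (1), quantile normalization (4) and leaving out rat 1 (8), rat 2 (3) or rat 3 (7). Atp5pd turned to -0.045 with an offset of 64 and to -0.072 after quantile normalization, where Cyc1 turned to 0.071, Uqcr10 to 0.094 and Cox6b1 to 0.034. With 1 rat left out, 13 of 36 members changed sign: Sdha ranged from -1.25 to 0.42, Sdhaf2 from -3.06 to 0.29, Cyc1 from -0.29 to 0.16, Uqcr10 from -1.07 to 0.77, Uqcrc1 from -1.01 to 0.24, Uqcrc2 from -2.44 to 0.19, Uqcrh from -0.76 to 0.044, Cox6b1 from -0.44 to 0.20, Cox6c from -1.80 to 0.19, Atp5f1d from -0.60 to 0.11, Atp5mc3 from -0.34 to 1.90, Atp5mk from -1.03 to 0.28 and Atp5pd from -1.03 to 1.46. The cause of these changes was not tested.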
